A study of Mus musculus with 6 samples.

Results

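The genes described here are 10 enzymes that carry glucose to lactate in red cell precursors or make 2,3-bisphosphoglycerate (2,3-BPG): Hk1, Hk2, Gpi1, Pfkl, Aldoa, Tpi1, Pgk1, Bpgm, Pklr and Ldha. Every probe that the array names for one of them was taken, with no measured value used in the choice, which gave 18 of the 55681 probes and 10 of the 34761 gene names on the array. RNA came from sorted CD71highTer119+ bone marrow (BM) erythroblasts of 3 P38α+/- and 3 P38α-/- littermate mice, with 1 Agilent 1-colour array per mouse. Both genotypes were C57Bl/6 mice that carried Mx1-Cre, with P38α fl/+ as the control and P38α fl/fl as the deletion, and both had received 3 injections of PolyIC (300 µg each) at 6 to 8 weeks of age, 6 weeks of rest and then 1 injection of phenylhydrazine (PHZ, 100 mg per kg) to destroy red cells. Erythroblasts were taken on day 4 after PHZ, and 10 ng of RNA was labelled with Cy3. Mx1-Cre is switched on by interferon in blood-forming cells and in other tissues that respond to it, and is not restricted to erythroblasts. The controls keep 1 P38α allele, so no array shows cells with both alleles. Nothing in the sources used here ties an array to the sex of its mouse.

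Mature red cells have no mitochondria and live on glycolysis, and erythroblasts prepare for that by making erythroid forms of several of its enzymes. Hexokinase, phosphofructokinase and pyruvate kinase catalyse its committed steps, and inherited loss of pyruvate kinase from the PKLR gene is a known cause of hemolytic anemia. Bisphosphoglycerate mutase, made from Bpgm, draws an intermediate out of glycolysis to make 2,3-BPG, which lowers the oxygen affinity of hemoglobin, and the flow rejoins glycolysis beyond phosphoglycerate kinase.

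Each signal was put on the log2 scale and set against a reference of its own array, the 75th percentile of the 15527 probes that all 6 arrays detected well above background, so a negative value lies below that reference. Probes differ in how well they bind, so the signal of a probe is compared only with the same probe on other arrays. Fold changes are P38α-/- minus P38α+/-. Their median over the 18769 tested probes was -0.16 on the log2 scale, and the change relative to that median is given beside each value on which a comparison turns. The arrays differed in detection, with 36.8% to 53.0% of probes well above background in P38α+/- and 28.9% to 35.9% in P38α-/-. Every P38α-/- array thus detected fewer probes than every P38α+/- array. The 2 probes of Mapk14, the gene of P38α, did not read lower in the arrays labelled P38α-/- (log2 fold change 0.54, adjusted p = 0.187, and 0.01, adjusted p = 0.990, from limma). On the first of them every P38α-/- array was higher than every P38α+/- array, and on the second the genotypes overlapped. Where these probes lie relative to the deleted part of the gene is not given in the sources used here, so they do not check the labels, and genotypes are given as labelled. Erythroid identity was read from 15 marker genes on the array, of which 14 were tested and all of those were well above background on all 6 arrays. Their median log2 fold change was -0.03, and their summed level ranged from 9.88 to 10.6 in P38α+/- and from 9.86 to 10.6 in P38α-/-. The summed level of 14 neutrophil genes ranged from 6.97 to 8.26 in P38α+/- and from 6.18 to 6.61 in P38α-/-, and all 14 were well above background on all 6 arrays. In RNA from a sorted population, fewer cells of a type and less RNA per cell cannot be told apart.

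The probe sequences below are those of the genes on which the results turn, and are shown because each probe reads only 60 bases of its transcript. The Pklr probe lies on the plus strand of chromosome 3 of mm9 and spans 519 genomic bases, so it crosses a gap between blocks of the transcript. Of the 3 Ldha probes, both shown here lie on chromosome 7, and the Hk1 probe lies on the minus strand of chromosome 10.
Pklr, chr3:88948907-88949425: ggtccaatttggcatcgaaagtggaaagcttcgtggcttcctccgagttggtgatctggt
Hk1, chr10:61732717-61732776: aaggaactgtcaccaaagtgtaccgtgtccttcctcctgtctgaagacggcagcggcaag
Ldha, chr7:54103010-54103069: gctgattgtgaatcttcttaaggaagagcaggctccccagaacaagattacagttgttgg
Ldha, chr7:54107294-54107353: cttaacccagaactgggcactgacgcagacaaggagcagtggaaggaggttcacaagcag

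In limma's test with Benjamini-Hochberg adjustment over all 18769 tested probes, none of the 9 members that could be tested passed an adjusted p of 0.05 with a fold of at least 2 (0 genes), where 0.191% of the 14143 tested genes passed, 0.148% as higher and 0.0424% as lower in P38α-/-. With the replicate number as a block 0 members passed, and 0.445% of all tested genes did. At an unadjusted p of at most 0.05, 1 of the 9 members passed, Pklr, against 20.0% of all tested genes, and the methods' test passed 1 as well at that level and 0 after adjustment. On its brightest probe, 1 member was higher on every P38α-/- array than on every P38α+/- array (Pklr), where 7.45% of all tested genes were, and 2 members were lower (Gpi1 and Pgk1), where 19.6% were. The genotypes were thus apart for 3 of 9 members and for 27.1% of all tested genes. These counts depended on the scaling, with 4 members higher and 0 lower when the percentile was taken over all probes, and 0 in either direction with centring on the E1A spike-in spots. The median change over the 9 members was 0.06 on the log2 scale, 0.22 above the median of all tested probes. All 9 were detected on all 6 arrays, and the probes that all 6 arrays detected had a median of -0.09. With quantile normalization the members' median was 0.11 and that of all tested probes 0.06. A positive log2 fold change was read for 6 members and a negative one for 3, where 65.5% of all tested genes had a negative one. That share includes genes that were tested through detection in only 1 genotype.

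**Figure D1:**
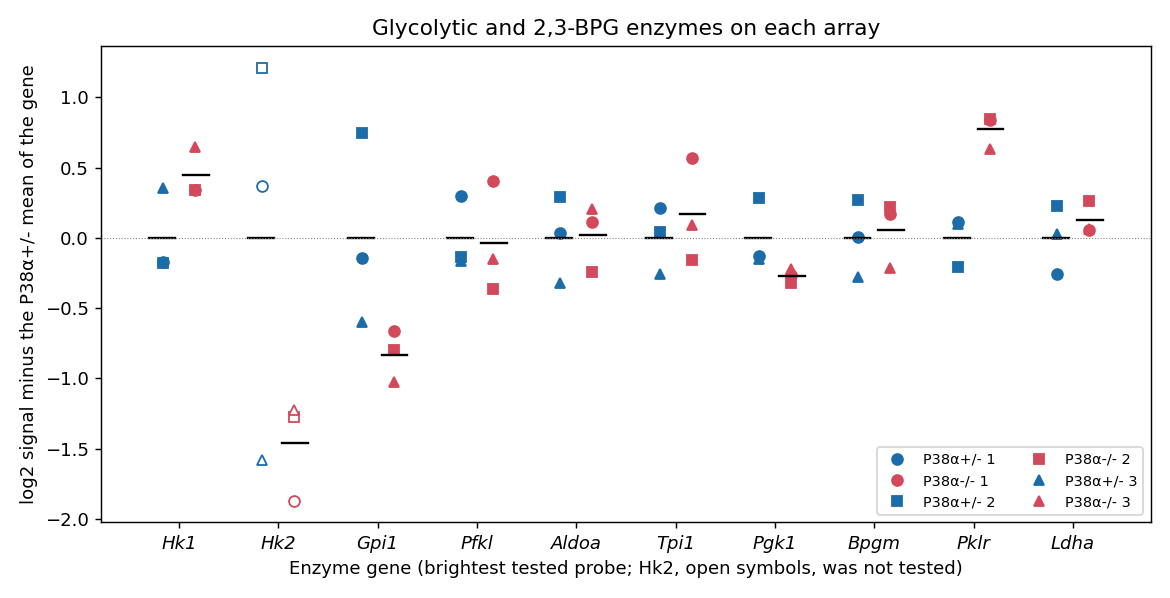
Log2 signal of each enzyme gene on each of the 6 arrays, with the gene's P38α+/- mean subtracted, so that the black bar of P38α+/- lies at 0 and the other black bar is the P38α-/- mean (n = 3 per genotype). The 3 P38α-/- arrays lie above all P38α+/- arrays for Pklr and below them for Gpi1 and Pgk1, and the genotypes overlap for the other genes.

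Pklr encodes the liver and red cell form of pyruvate kinase, which makes ATP in the step from phosphoenolpyruvate to pyruvate. Its probe read -4.07, -4.39 and -4.08 in P38α+/- and -3.34, -3.33 and -3.55 in P38α-/-. The genotypes did not overlap, and the P38α-/- array of each replicate number was higher than the P38α+/- array of that number, by 0.73, 1.06 and 0.53. The means were -4.18 ± 0.18 and -3.40 ± 0.12 (SD, n = 3), a difference of 0.77 on the log2 scale with a 95% interval of 0.37 to 1.17, or 1.71-fold, and 0.93 relative to the median probe. Its adjusted p was 0.105 in limma, and 0.0878 with the replicate number as a block, so the difference did not pass the threshold. It passed with a log2 fold change of 1.25 (adjusted p = 0.0359) when the percentile was taken over all probes, a scaling that moved the median of all tested probes to 0.32. With array weights the adjusted p was 0.0463, with a log2 fold change of 0.82, below the fold asked for. With normexp background the log2 fold change was 0.44 (adjusted p = 0.531). With centring on the E1A spike-in spots it was 0.94 (adjusted p = 1.00), and the genotypes overlapped. Leaving out each array in turn gave 0.67 to 0.84.

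Both promoters below are from RefSeq on GRCm38.p6, as the 250 bases before a transcript start, and all 10 members were matched, with 15 promoters. Pklr is shown because its genotypes did not overlap in the upward direction, with capitals for AGATAA, a motif known for GATA factors. It stood 35 bases before the start. The second Pklr promoter has no AGATAA, and of all promoters 1 of 15 from members and 9.99% of 32851 held it on either strand. Ldha, the lactate dehydrogenase subunit that is known as a hypoxia target, is shown for ACGTG, the core of the hypoxia response element, and capitals also mark CCNCNCCC. ACGTG was searched on both strands, so a copy of the palindrome around it counts on each strand, and it matched 5 times in this promoter. The second Ldha promoter has no ACGTG and no CCNCNCCC. ACGTG was in 5 of the 15 member promoters (of Hk2, Aldoa, Pgk1 and Ldha) and in 16.6% of all promoters. Overlapping Aldoa windows hold the same ACGTG site and share a CCNCNCCC stretch, so these are counted in each window. CCNCNCCC, known as the CACCC box, was in 10 of the 15 and in 45.9% of all promoters, and TGATAA was in 1 of the 15, of Aldoa, and in 7.94% of all promoters. A match says only that these letters are in the window.
Pklr, chr3:89135892-89136141, plus strand: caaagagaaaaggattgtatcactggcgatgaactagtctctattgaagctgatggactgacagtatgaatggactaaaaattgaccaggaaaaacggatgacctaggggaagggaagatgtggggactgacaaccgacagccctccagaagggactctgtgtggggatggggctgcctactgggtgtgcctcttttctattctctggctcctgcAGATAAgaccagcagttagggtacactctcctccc
Ldha, chr7:46845554-46845803, plus strand: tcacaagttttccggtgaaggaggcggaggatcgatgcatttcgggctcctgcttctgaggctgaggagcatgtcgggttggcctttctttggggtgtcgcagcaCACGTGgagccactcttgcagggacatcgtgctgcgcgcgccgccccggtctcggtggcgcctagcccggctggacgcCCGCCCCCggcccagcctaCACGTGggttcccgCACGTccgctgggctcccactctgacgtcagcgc

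Bpgm, the enzyme that makes 2,3-BPG, read 4.19, 4.45 and 3.90 in P38α+/- and 4.35, 4.40 and 3.96 in P38α-/- on its probe on chromosome 6 (34454792 to 34454851 of mm9). The genotypes overlapped throughout. The log2 fold change was 0.06, with a 95% interval of -0.45 to 0.57 and an adjusted p of 0.907 in limma, so a change within those bounds in either direction could not be seen with these arrays. Minpp1, a phosphatase that can remove a phosphate from 2,3-BPG, gave -0.04 (adjusted p = 0.914) and 0.07 (adjusted p = 0.918) on its 2 tested probes.

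Glucose is held in the cell as glucose 6-phosphate by hexokinases, of which Hk1 is the red cell form. The brightest Hk1 probe (chromosome 10, 61731856 to 61731915) read 3.40, 3.39 and 3.92 in P38α+/- and 3.91, 3.92 and 4.22 in P38α-/-. P38α+/- replicate 3 lay among the P38α-/- arrays, so the genotypes overlapped, although the P38α-/- array was higher within each of the 3 replicate numbers, by 0.51, 0.53 and 0.30. Its log2 fold change was 0.44 (0.60 relative to the median probe), with a standard error of 0.21 and an adjusted p of 0.280. The Hk1 probe printed above gave 0.59 (adjusted p = 0.342). The remaining Hk1 probe is placed on chromosome 5 (22118404 to 22118463), away from the other two, and gave -0.14 (adjusted p = 0.647), so the probes of Hk1 disagreed in sign and it is uncertain which transcript the last one reads.

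Hk2, a hexokinase that responds to insulin and hypoxia in other tissues, was the only member that could not be tested. Its probe read -5.44, -4.60 and -7.39 in P38α+/- and -7.68, -7.09 and -7.03 in P38α-/-. It was detected on 2 of 3 P38α+/- arrays and on 0 of 3 P38α-/- arrays. P38α+/- replicate 3 lay among the P38α-/- arrays. With P38α-/- set no lower than the lowest signal that counted as well above background, the mean of all 3 P38α+/- arrays was 1.34-fold higher. That mean includes the undetected reading of P38α+/- replicate 3, so the value is not a lower bound. The readings gave an exact permutation p of 0.30 (two-sided, n = 3 per genotype, where the smallest possible p is 0.10).

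Gpi1, glucose phosphate isomerase, turns glucose 6-phosphate into fructose 6-phosphate. Its brightest probe (chromosome 7, 34987178 to 34987237, minus strand) read 1.71, 2.60 and 1.26 in P38α+/- and 1.19, 1.05 and 0.83 in P38α-/-. All P38α-/- arrays lay below all P38α+/- arrays, but P38α+/- replicate 3 was only slightly above the highest of them and P38α+/- replicate 2 stood far above the rest. The log2 fold change was -0.83 (-0.67 relative to the median probe), 1.78-fold lower, with a 95% interval of -1.67 to 0.01 and an adjusted p of 0.242. Without P38α+/- replicate 2 it was -0.46 (adjusted p = 0.420). The other 2 probes gave -0.87 and -0.86, but the 3 probes share runs of 40 to 47 bases and are not independent readings. On the probe with -0.87 the genotypes overlapped.

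Pfkl, the liver-type subunit of phosphofructokinase, gave a log2 fold change of -0.04 with a 95% interval of -0.65 to 0.57. Its sign was positive under several other scalings. Aldoa, the aldolase of muscle and red cells, gave 0.02 with an interval of -0.51 to 0.56, and also changed sign with the scaling. For both, the arrays of the 2 genotypes interleaved and the adjusted p was 0.951 and 0.966.

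**Figure D2:**
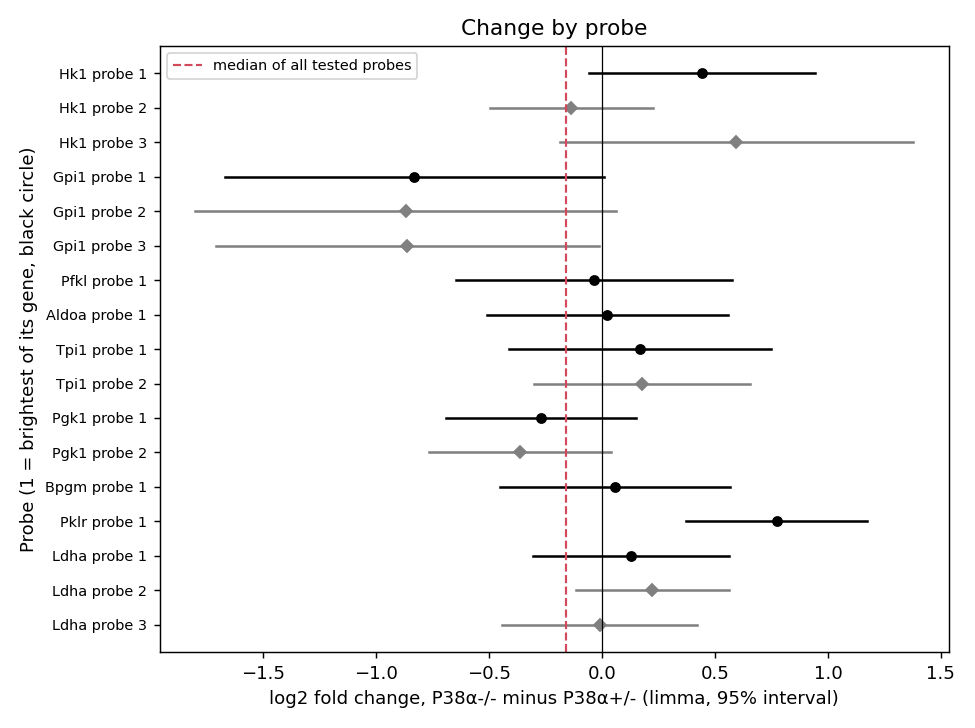
Log2 fold change (P38α-/- minus P38α+/-, limma) of the 17 tested probes of the 9 members that could be tested, with 95% intervals. Black circles mark the brightest probe of a gene, grey diamonds its other probes, and the dashed line the median of all tested probes at -0.16. The intervals of the Pklr probe and of Gpi1 probe 3 leave out 0, the Gpi1 probes overlap one another in sequence, and the Hk1 probes lie on both sides of 0.

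Tpi1 encodes triose phosphate isomerase, which joins the products of aldolase into a common path. Its probes gave 0.17 (adjusted p = 0.736) and 0.18 (adjusted p = 0.654), and the genotypes overlapped on both. The brightest probe of Ldha, which reduces pyruvate to lactate and restores NAD+, gave 0.13 (adjusted p = 0.732). The second Ldha probe printed above (chr7:54107294-54107353) read -0.36, -0.29 and -0.24 in P38α+/- and -0.06, -0.16 and 0.00 in P38α-/-. The genotypes did not overlap on this probe, by a small distance, with a log2 fold change of 0.22 (adjusted p = 0.408). The first Ldha probe printed gave -0.01 (adjusted p = 0.982). The probes lie in different stretches of the gene and differed in whether the genotypes overlapped.

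Pgk1, phosphoglycerate kinase, makes the first ATP of the pathway and competes with Bpgm for the same substrate. Its brightest probe read 0.25, 0.67 and 0.23 in P38α+/- and 0.12, 0.06 and 0.16 in P38α-/-. Every P38α-/- array was lower, and P38α+/- replicate 2 was again the highest array. The log2 fold change was -0.27 (-0.11 relative to the median probe, adjusted p = 0.420), and -0.13 without P38α+/- replicate 2, which is 0.05 above the median probe of that fit. The second probe gave -0.36 (adjusted p = 0.276), also with no overlap, but shares a run of 53 bases with the first. The file places the first on chromosome 3 and the second on chromosome X, so signal from near-identical copies cannot be separated. With the percentile taken over all probes the sign of Pgk1 turned, to 0.21.

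Several members have a close relative that is less typical of red cells or an enzyme that shares their substrate, and the change of the member relative to that enzyme was compared on each array, where the scaling between arrays cancels. Of 7 such pairs, 6 could be tested with an exact permutation test over the 6 arrays (two-sided, n = 3 per genotype), which cannot give a p below 0.10, and p-values were adjusted over the 6. A ratio of 2 probes carries their unequal binding, so only its change between genotypes was read. Pklr relative to Pkm, the pyruvate kinase of most other tissues, gave -4.37, -5.34 and -3.20 in P38α+/- and -2.54, -1.69 and -2.11 in P38α-/-, with no overlap. The ratio was 2.19 higher on the log2 scale in P38α-/- (exact p = 0.10, adjusted 0.30). Of that, Pklr gave 0.77, and Pkm a larger part with -1.42 (adjusted p = 0.184 in limma). Pkm read 0.31, 0.95 and -0.88 in P38α+/- and -0.80, -1.64 and -1.43 in P38α-/-, so on its own it overlapped between genotypes.

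Bpgm relative to Pgam1, which moves a phosphate within the main path where Bpgm makes the side product, gave 5.16, 4.24 and 4.85 in P38α+/- and 5.89, 6.09 and 5.54 in P38α-/-. The genotypes did not overlap, and the ratio was 1.09 higher in P38α-/- (exact p = 0.10, adjusted 0.30). Pgam1 made up nearly all of it. It read -0.97, 0.21 and -0.95 in P38α+/- and -1.54, -1.69 and -1.57 in P38α-/-, a log2 fold change of -1.03 (adjusted p = 0.171 in limma). Over the alternatives the change was 1.67 to 2.74 for Pklr relative to Pkm and 0.83 to 1.29 for Bpgm relative to Pgam1.

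The other pairs overlapped between genotypes. Ldhb and Pfkp were detected on only 2 of 3 P38α-/- arrays, so ratios to them rest partly on signals not above background. The ratio of Ldha to Ldhb was 1.37 higher in P38α-/- (exact p = 0.30, adjusted 0.36) and that of Pfkl to Pfkp 0.75 higher (exact p = 0.30, adjusted 0.36), with 0.65 to 2.09 and 0.29 to 1.17 over the alternatives. Without P38α+/- replicate 2 the first was 0.81 and without P38α+/- replicate 3 it was 2.09, and the second was 0.43 without P38α+/- replicate 1, 0.48 without P38α-/- replicate 1 and 1.17 without P38α+/- replicate 3. That of Bpgm to Pgk1 was 0.33 higher (exact p = 0.20, adjusted 0.36), and was higher in P38α-/- within each of the 3 replicate numbers, by 0.30, 0.55 and 0.13. That of Aldoa to Aldoc was 0.15 higher (exact p = 1.00, adjusted 1.00), with the opposite sign under 3 alternatives. In none of the 6 pairs did the adjusted p pass 0.05. With the replicate numbers kept as pairs, an exact sign-flip test over the 3 differences cannot give a p below 0.25. It gave 0.25 for Pklr to Pkm, Bpgm to Pgam1 and Bpgm to Pgk1, where all 3 differences were positive, and 0.50 to 1.00 for the others.

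**Figure D3:**
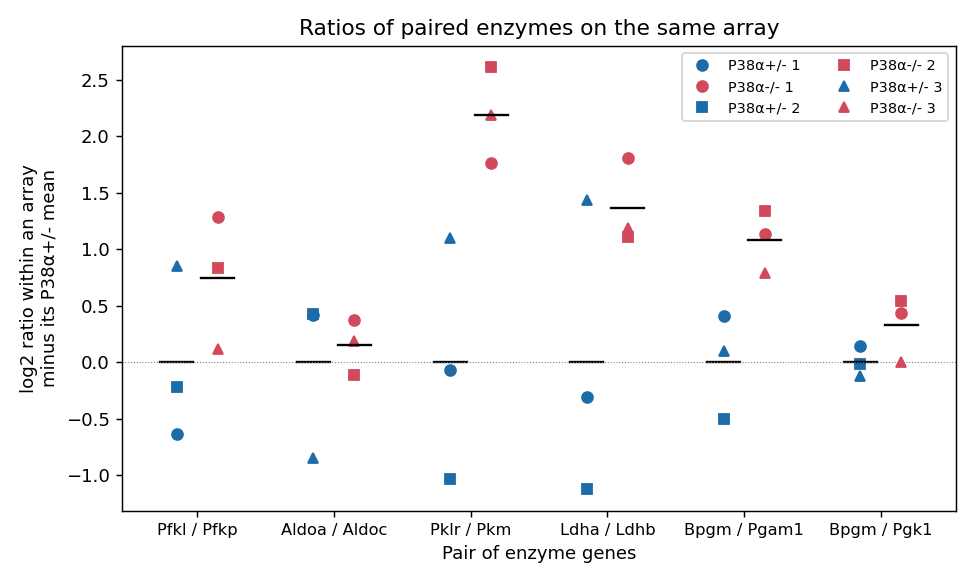
Log2 ratio of the first to the second gene of each pair on the same array, with the pair's P38α+/- mean subtracted. Black bars are genotype means (n = 3). The P38α-/- arrays lie above all P38α+/- arrays for Pklr to Pkm and for Bpgm to Pgam1, by 2.19 and 1.09 in the means, and overlap them in the other 4 pairs.

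Of 19 further glycolytic enzymes, 11 could be tested, and none passed the adjusted p of 0.05 (0 genes in either direction). No gene of the list was higher on every P38α-/- array and 3 were lower (Hk3, Adpgk and Pgam1). Of all tested genes 7.45% were higher and 19.6% lower on every P38α-/- array, which are the shares to set beside the counts of this and the following lists. Of the 11, Ldhb and Pfkp were tested only through their detection in P38α+/-. Over the 9 that all 6 arrays detected the median was -0.13 on the log2 scale, and with those 2 it was -0.78. The probes that all 6 arrays detected had a median of -0.09, and all tested probes -0.16. The difference from the members was not tested. Hk3, a hexokinase of white blood cells, differed by -1.37 on the log2 scale (adjusted p = 0.185), and Adpgk, an ADP-dependent glucokinase, -1.16 (adjusted p = 0.139). Pfkm, the muscle-type phosphofructokinase that joins Pfkl in red cell tetramers, gave 0.16 (adjusted p = 0.662). The 7 probes of Gapdh, which has many processed copies in the genome, gave 0.29 to 0.52, and on 1 of them the P38α-/- arrays were all higher. Its probes therefore lay above the median of all tested probes.

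Among phosphatases and the enzymes that make or remove fructose 2,6-bisphosphate, an activator of phosphofructokinase, 6 of 8 genes were tested. None passed. The 4 that all 6 arrays detected had a median of 0.03 and overlapped between genotypes, and 2 (Pfkfb3 and Fbp1) were tested only through their detection in P38α+/-. Pfkfb3, which makes this activator, read -4.70, -3.14 and -5.02 in P38α+/- and -5.90, -6.27 and -7.25 in P38α-/-. Only 1 of 3 P38α-/- arrays detected it well above background, and it differed by -2.19 on the log2 scale (adjusted p = 0.136). Fbp1, which runs the phosphofructokinase step backwards, was detected on 0 of 3 P38α-/- arrays and was at least 2.33-fold lower there (adjusted p = 0.120).

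Of 7 carriers of glucose and lactate, 4 were tested, none passed and 1 was lower on every P38α-/- array. This was Slc2a4, a glucose carrier known for its response to insulin, at 1.79, 1.75 and 1.84 in P38α+/- and 1.08, 1.10 and 1.24 in P38α-/-. The genotypes were far apart relative to their spread, with a log2 fold change of -0.65 (adjusted p = 0.105). Slc2a1, the main glucose carrier of many cells, could not be tested on these arrays.

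All 7 pentose phosphate genes, whose pathway makes the NADPH that protects red cells against oxidants, were tested, with none past the threshold, and the 6 that all arrays detected had a median of 0.07. Taldo1 was higher on every P38α-/- array (0.45, adjusted p = 0.158), and Pgd (-0.77, adjusted p = 0.185) and Rpia (-0.45, adjusted p = 0.205) were lower. Of 13 genes for the entry of pyruvate into mitochondria, 12 were tested and none passed, and the 11 that all arrays detected had a median of -0.01. Of these 11, 3 were higher and 0 lower on every P38α-/- array. Pdk3, which switches pyruvate dehydrogenase off, was among the 3 (0.43, adjusted p = 0.287). Pdp1, which switches it on, was lower on every P38α-/- array (-0.70, adjusted p = 0.159). It was detected on 2 of 3 P38α-/- arrays and tested only through P38α+/-, and on another Pdp1 probe (-0.83, adjusted p = 0.244) the genotypes overlapped. Pdk1 (-0.16) and Pdk2 (0.37), which act as Pdk3 does, and Pdp2 (-0.02), which acts as Pdp1 does, overlapped between genotypes. Pdhb, a subunit of pyruvate dehydrogenase, was higher by 0.18 (adjusted p = 0.536) on its brightest probe, where the genotypes did not overlap. Its other probes gave 0.13 (adjusted p = 0.752) and 0.07 (adjusted p = 0.913), and the genotypes overlapped on both.

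Since several glycolytic genes are known targets of hypoxia-inducible factors, 18 other genes of the hypoxia response were read. Of these, 10 were tested and none passed the adjusted p of 0.05, and the 9 that all 6 arrays detected had a median of -0.09, with 1 higher and 3 lower on every P38α-/- array. Ddit4, an inhibitor of mTORC1 signalling, read -2.78, -2.15 and -1.35 in P38α+/- and -0.55, -0.24 and -0.25 in P38α-/-. It was higher on every P38α-/- array by a log2 fold change of 1.75 (adjusted p = 0.103). Ndrg1 gave -0.89 (adjusted p = 0.085) and Ankrd37, detected on 2 of 3 P38α-/- arrays, -1.47 (adjusted p = 0.274). Genes of this list thus lay on both sides of 0.

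**Figure D4:**
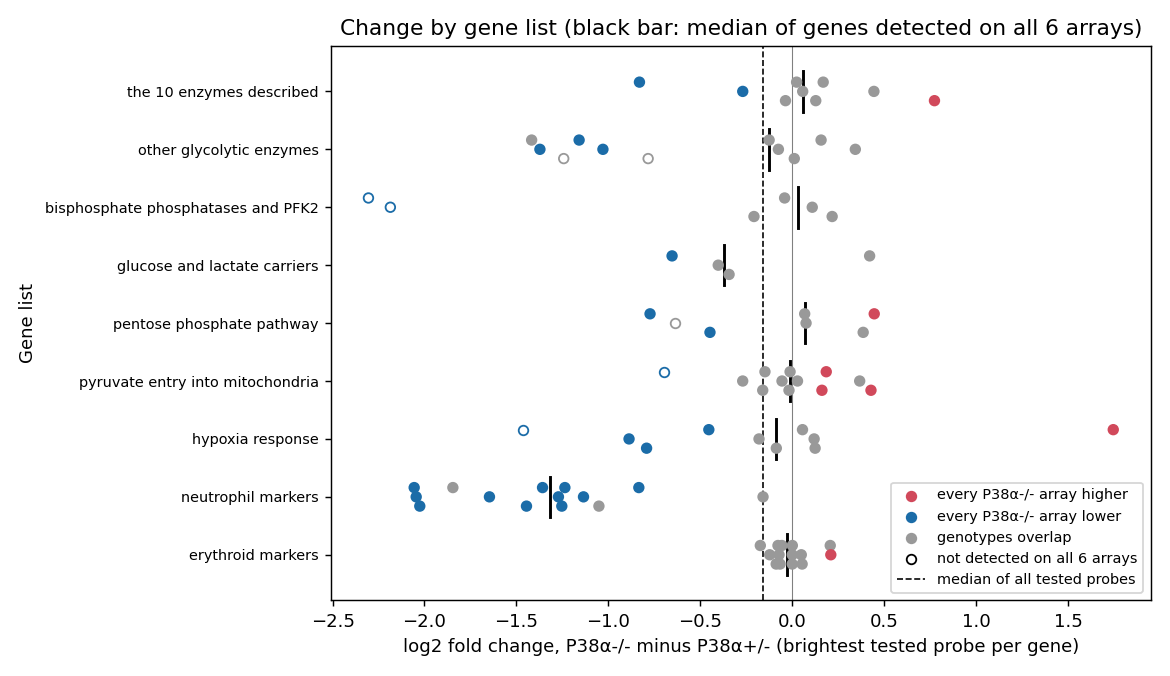
Log2 fold change (P38α-/- minus P38α+/-) of the brightest tested probe of each gene, by gene list. Each point is a gene, coloured by whether the 3 P38α-/- arrays all lay above or all below the 3 P38α+/- arrays, open symbols are genes not detected on all 6 arrays, black bars are medians of the genes that were, and the dashed line is the median of all tested probes. Among the 9 lists drawn, the medians run from -1.31 for neutrophil markers to 0.07 for the pentose phosphate pathway, with 0.06 for the members described and -0.03 for erythroid markers.

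Neutrophil markers read lower in the P38α-/- samples, without passing the test. Of 14 markers, 11 were lower on every P38α-/- array, where 19.6% of all tested genes were, none passed the adjusted p of 0.05, and the median log2 fold change was -1.31. Their mean level was 2.09, 2.93 and 1.32 in P38α+/- and 1.00, 0.76 and 0.43 in P38α-/-. The highest array was P38α+/- replicate 2, which was also the highest for Gpi1, Pgk1, Pkm, Pgam1 and Hk3. That array was the highest for Aldoa (2.94) and Bpgm (4.45) as well, which overlapped between genotypes. Gpi1 ranked the 6 arrays in the same order as the neutrophil mean. Neutrophils also express glycolytic enzymes such as Hk3 and Pkm. Pklr was lowest in P38α+/- replicate 2, where the markers were highest, and higher in the P38α-/- arrays. The part of these markers in the lower readings of Gpi1, Pgk1, Pkm, Pgam1, Hk3, Fbp1 and Pfkfb3, and in the higher reading of Pklr, was not tested.

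**Figure D5:**
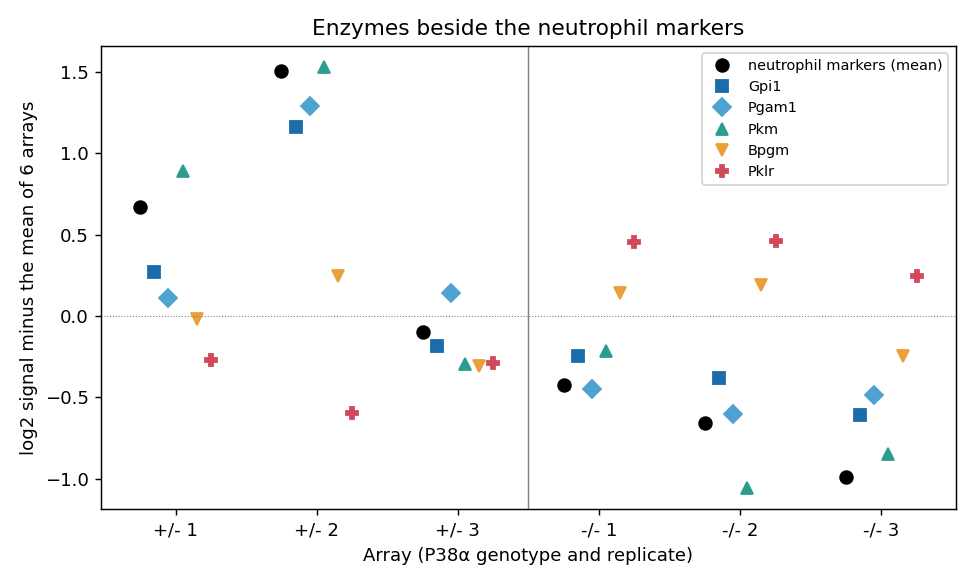
Log2 signal on each of the 6 arrays, minus the mean of the 6, for the mean of 14 neutrophil markers and for 5 enzyme genes. Gpi1 orders the arrays as the neutrophil markers do, and P38α+/- replicate 2 is the highest array for the markers, Gpi1, Pgam1, Pkm and Bpgm. Bpgm overlaps between genotypes, and Pklr is lowest in P38α+/- replicate 2 and higher on the P38α-/- arrays.

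The summed level of B cell markers ranged from -3.24 to -0.22 in P38α+/- and from -4.94 to -2.95 in P38α-/-, and that of macrophage and monocyte markers from -0.47 to 0.79 in P38α+/- and from -1.21 to -0.09 in P38α-/-. Of 8 B cell markers, 3 were tested and 1 was detected on all 6 arrays, and the 2 that were lower on every P38α-/- array (Ms4a1 and Ebf1) were detected on 0 of 3 of those arrays. Of 12 macrophage and monocyte markers, 4 were detected on all 6 arrays, with 1 lower on every P38α-/- array and a median of -0.67. The 9 that were tested, some only through P38α+/-, all had a negative log2 fold change. Their median was -1.04, with 2 lower on every P38α-/- array. Of 7 megakaryocyte and platelet markers, 4 were detected on all 6 arrays, with 1 lower and a median of 0.28, and of 5 T and NK cell markers 2 were, with 1 lower and a median of -0.99. All 10 late erythroid markers were, with 3 higher on every P38α-/- array and a median of 0.12, and of 8 early erythroid and progenitor markers 5 were, with none apart and a median of 0.05. Over the 7 early markers that were tested the median was -0.07, with 3 positive and 4 negative. Of the 7, 1 (Kit, log2 fold change -1.62) was lower on every P38α-/- array. Of all tested genes 7.45% were higher and 19.6% lower on every P38α-/- array. No gene of these 6 lists passed the adjusted p of 0.05 (0 genes). With replicate numbers taken as a block Cd34, Kit and Ebf1 passed as lower, but were detected on only 1, 2 and 0 of 3 P38α-/- arrays and were tested only through P38α+/-. They and Ms4a1 were named after their values were seen. The part of erythroid maturation in the Pklr reading was not tested.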

How the data were processed

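The authors deposited the scanner intensity of every spot, made with Agilent Feature Extraction 10.7.3.1 per the file headers, with background subtracted within the array, no normalization between arrays and probes placed on mm9. They also deposited a table of intensities that its values show to be quantile normalized. Arrays were grouped by their labels. Control and outlier spots were left out, no spot was saturated, and spots of a probe were averaged. Log2 signals were centred on the 75th percentile of probes well above background on all 6 arrays. Probes well above background on all 3 arrays of a genotype were tested in R 4.3.3 with limma 3.58.1 (lmFit, eBayes, two-sided, tested on simulated data), and the brightest tested probe stands for a gene. The number of arrays limits the precision, and P38α-/- replicate 3 was alone on its slide.

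Named were all members, the genes of the pairs, and up to 3 genes per pathway list with the largest change and no overlap. Gapdh, Minpp1, Pfkm, Slc2a1, Pdk1, Pdk2 and Pdp2 were named after their values were seen. Members and lists were chosen with earlier results of these data known. Replicate numbers may pair the samples, since the series description speaks of pairs and arrays of the same number deviated together from their genotype means (r = 0.392, 0.242 and 0.389, and at most 0.0618 between numbers). Deviations from a mean of 3 arrays sum to 0, which by itself lowers the correlations between numbers. The main fit and the permutation tests took the arrays as unpaired, and the replicate block and the sign-flip test took them as paired. P38α-/- replicate 2 in the authors' table has a Spearman correlation of 0.897 with its scanner signals, against 1.00 for the others, so the alternative on that table may rest on another hybridisation.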

Additional observations from a re-analysis of the deposited data

How the results depend on the processing

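Alternatives were 18 settings for each member's log2 fold change: scalings, background, filters, the authors' table, blocks, array weights, the methods' test, all probes of a gene averaged, and each array left out. The number of genes called on the whole array depended strongly on the setting. It was 736 with the percentile of all probes, 15 with quantile normalization, 7 with E1A spike-in centring, 12 with normexp background, 0 with no filter, 76 with probes above background on all 6 arrays, 11 with the authors' table, 63 with the replicate number as a block, 0 with the slide as a block, 483 with array weights and 2 with the methods' test. Leaving out arrays gave 0 to 100, with 0 without P38α+/- replicate 2 or any of the P38α-/- replicates and 100 without P38α+/- replicate 3. Members called were 1 (Pklr) with the percentile of all probes and 0 under each other setting. Among the gene lists, the replicate block changed the call only of the markers Cd34, Kit and Ebf1, which passed as lower.

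Members higher on all P38α-/- arrays were 4 with the percentile of all probes, 0 with E1A centring and 1 to 2 with arrays left out. Members lower on all were 0, 0 and 2 in the same order, and 1 with the authors' table. The members' median was 0.54 with the all-probe percentile and 0.23 with E1A centring, while the median of all tested probes moved to 0.32 and 0.01. These 2 settings shift all probes of an array alike, so they cannot change the distance between the medians by much. The members' median lay closer to that of all tested probes with quantile normalization (0.11 and 0.06) and in the authors' table (0.08 and 0.06). Pgk1 turned to 0.21 with the percentile of all probes. Pfkl turned to 0.44 there, 0.19 with quantile normalization, 0.13 with E1A centring, 0.0026 with normexp, 0.24 in the authors' table and 0.021 with the slide block, with -0.26 to 0.13 when arrays were left out. Aldoa turned to -0.012 with quantile normalization, -0.068 with the slide block and -0.049 with array weights, with -0.14 to 0.17 when arrays were left out. Bpgm turned to -0.12 with array weights, with -0.083 to 0.19 when arrays were left out, and Tpi1 gave -0.034 to 0.33. Aldoa relative to Aldoc turned to -0.14 with quantile normalization and -0.11 in the authors' table, with -0.27 to 0.36 when arrays were left out. Pklr, Hk1, Ldha and Gpi1 kept their sign under all 18, at 0.44 to 1.28, 0.30 to 0.93, 0.00 to 0.61 and -1.19 to -0.35. Not all 18 could change a sign. The filters, the replicate block and the methods' test leave the log2 fold change of a probe as it is. The slide block gives the same change as leaving out P38α-/- replicate 3, which is alone on its slide. Where a value turned, the cause was not tested. Detection limits Hk2, Fbp1, Pfkfb3, Ldhb, Pfkp, Pdp1 and Ankrd37.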
